A study of Mus musculus with 5 samples.

Results

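The genes described here encode the cyclin-dependent kinases and cyclins that act on RNA polymerase II in transcription, together with the H3K9ac peaks called around their start sites in a mouse striatal cell line. They are 9 of the 22380 protein-coding genes of the annotation: Cdk13, Cdk12 and their cyclin Ccnk, Cdk9 with the cyclins Ccnt1 and Ccnt2, Cdk7 with the cyclin Ccnh, and Cdk8. Peaks were assigned to a gene if they were centred no more than 10 kb from any of its annotated transcript starts, which gave 40 of the 34286 peaks of the list from DOP-treated cells (the DOP list) and 41 of the 33355 peaks of the list from untreated cells (the untreated list). Cdk13 was chosen by its measured values, because a high-scoring peak present in one list alone came from each list at the same site of that gene. The other 8 genes were grouped with it by function. Peak status and score at these genes are therefore given as a description and without a test.

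The cells were STHdhQ111/Q111 striatal progenitor cells of C57BL/6 origin, a mouse line that carries mutant huntingtin on both alleles and divides at a permissive temperature. All groups were kept in serum-free medium for 24 h, either with the DPBS vehicle (untreated, n = 2 samples) or with 4 mM 4-deoxypyridoxine hydrochloride (DOP, n = 2 samples), an inhibitor of the enzyme that breaks down sphingosine-1-phosphate. Chromatin was immunoprecipitated with an antibody to H3K9ac, and 1 IgG sample of untreated cells and the wild-type Q7 cells were not analysed here. Each condition is represented by 1 list of called peaks, so no spread between replicates exists for any value, and the difference between the lists cannot be told apart from the difference between the libraries.

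Cyclin-dependent kinases bind a cyclin to become active, and a branch of the family phosphorylates the repeated tail of the largest subunit of RNA polymerase II instead of driving the cell cycle. CDK7 with cyclin H acts within the general factor TFIIH as the polymerase starts, CDK9 with cyclin T1 or T2 forms P-TEFb and releases the paused polymerase, and CDK12 and CDK13 with cyclin K act during elongation and RNA processing. CDK8 belongs to the kinase module of Mediator. Acetylation of histone H3 at lysine 9 marks the nucleosomes around the start sites of active genes.

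Peaks are reported by the position of the called centre, by the score the authors gave them, and by the percentile of that score within its own list, that is, the share of the list scored no higher. The lists do not define the score, and the depth behind it is unknown, so a score is given for its own list, and the lists are compared by percentile. The labelled cell type was matched by its marker promoters only in part: a peak lay within 1 kb of a start at 2 of 5 neural progenitor markers in each list (Vim and Notch1), whereas Nes, Sox2 and Pax6 had none. Dlx1 was the marker with a peak among 5 of striatal progenitors. Of the markers of other cell types, 1 of 6 of mature striatal neurons (Ppp1r1b) and 1 of 3 of oligodendrocytes (Mbp) had a peak in the DOP list and 0 in the untreated list, 1 of 3 of astrocytes (Slc1a2) had a peak in both, and 0 of 3 of microglia had one. Their part in the results was not tested.

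All 9 genes had a peak in both lists, compared with 55.3% of protein-coding genes. Cdk13 was chosen for peaks in both lists, and without it the count was 8 of 8. With centres limited to 1 kb or 5 kb of a start it was 8 of 9, since the Ccnk peaks lay farther away. A gene had 2 to 8 DOP-treated and 2 to 7 untreated peaks, with medians of 4 and 5, beside a median of 3 in each list over the 13272 genes with a peak in either. Ccnt1, Cdk12 and Ccnh had more peaks in the DOP list, 3 of 9 beside 32.5% of genes with a peak. Ccnt1 did so only through a neighbouring gene, since at its own starts it had 4 peaks with DOP and 5 without. Cdk13, Cdk7 and Ccnk had fewer, 3 of 9 beside 28.5%. Cdk7 did so through 1 weak untreated peak of percentile 9.54, and all peaks of Ccnk were nearest to the annotated start of its neighbour Setd3. With only peaks nearest to a member start, 2 genes had more and 3 fewer, with Ccnt1 in place of Ccnk among the latter. Cdk8, Cdk9 and Ccnt2 had equal numbers. The counts at the 9 genes thus lay on both sides, near the shares seen over all genes with a peak.

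**Figure D1:**
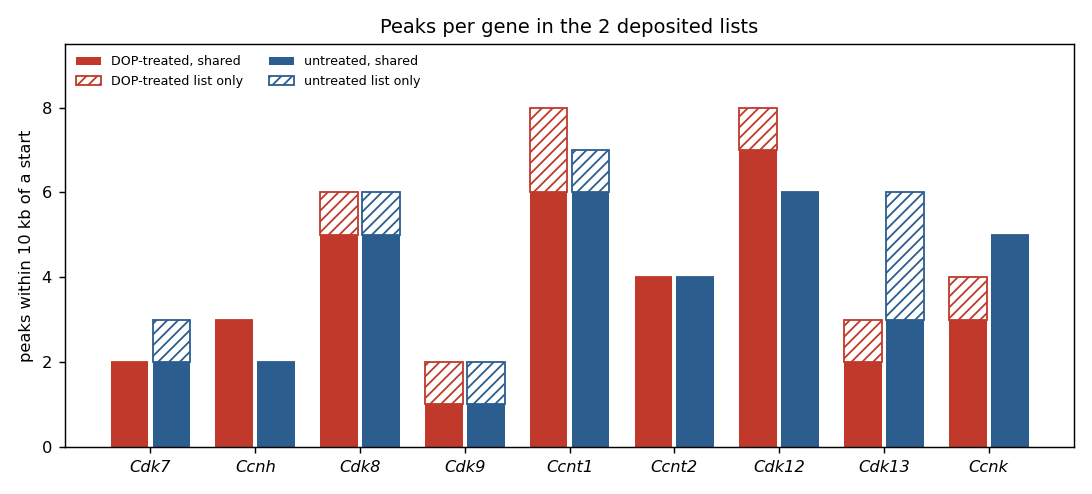
Bars show the number of H3K9ac peaks (vertical axis) centred within 10 kb of a start of each gene, with DOP-treated in red and untreated in blue, and hatching marks peaks that overlap no peak of the other list. Cdk13 has 3 DOP-treated and 6 untreated peaks, while Ccnt2 has 4 in each list and none that is hatched.

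A peak was called shared when at least 1 bp of it overlapped a peak of the other list. At the 9 genes 7 of 40 DOP-treated peaks were found in that list only, which is 17.5% (95% Wilson interval 8.75 to 31.95, for counting error only), against 20% of all DOP-treated peaks and 16.2% of those within 10 kb of a protein-coding start. In the untreated list 7 of 41 were found in that list only, 17.1% (8.53 to 31.3), against 16.7% of all and 13.3% of those within 10 kb. These shares include the peaks of Cdk13, which was chosen by such peaks, so nothing is read from them. Without Cdk13 6 of 37 DOP-treated and 4 of 35 untreated peaks were found in one list only, or 16.2% and 11.4%. At least 1 DOP-only peak lay near 6 of the 9 genes, beside 36.7% of genes with a peak, and at least 1 untreated-only peak near 5, beside 30.8%. Without Cdk13 these counts were 5 and 4 of 8 genes, and the DOP-only peaks of Ccnt1 and Ccnk were nearest to the annotated starts of their neighbours 2310037I24Rik and Setd3. Cdk13, Cdk9, Cdk8 and Ccnt1 had peaks of both kinds, and Ccnh and Ccnt2 had neither.

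Score percentiles are given as a description, since Cdk13 was chosen for high-scoring peaks. The median percentile at the 9 genes was 78.3 in the DOP list and 78.7 in the untreated list, whereas peaks within 10 kb of any protein-coding start had medians of 55.2 and 55.1. In the top 10% of the scores lay 10 of the 40 DOP-treated peaks and 9 of the 41 untreated peaks, 25% and 22.0%, compared with 11.3% and 11.2% of peaks within 10 kb of a start. Without Cdk13 the medians were 78.0 and 76.7, with 8 of 37 and 6 of 35 peaks in the top 10%. The strongest peak of a gene had a median percentile of 85.2 with DOP and 89.7 without, beside 78.4 and 77.3 over genes with a peak. Across the pathway lists described below it ran from 71.3 and 75.4, for TFIIH, to at most 94.1 and 94.7. The cell cycle kinases and cyclins had 84.1 and 88.7, so high percentiles were not particular to the 9 genes. Within 1 kb of the nearest protein-coding start lay 37 of the 40 and 37 of the 41 peaks, 92.5% and 90.2%, close to the 86.9% and 87.7% of all peaks within 10 kb of a start.

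**Figure D2:**
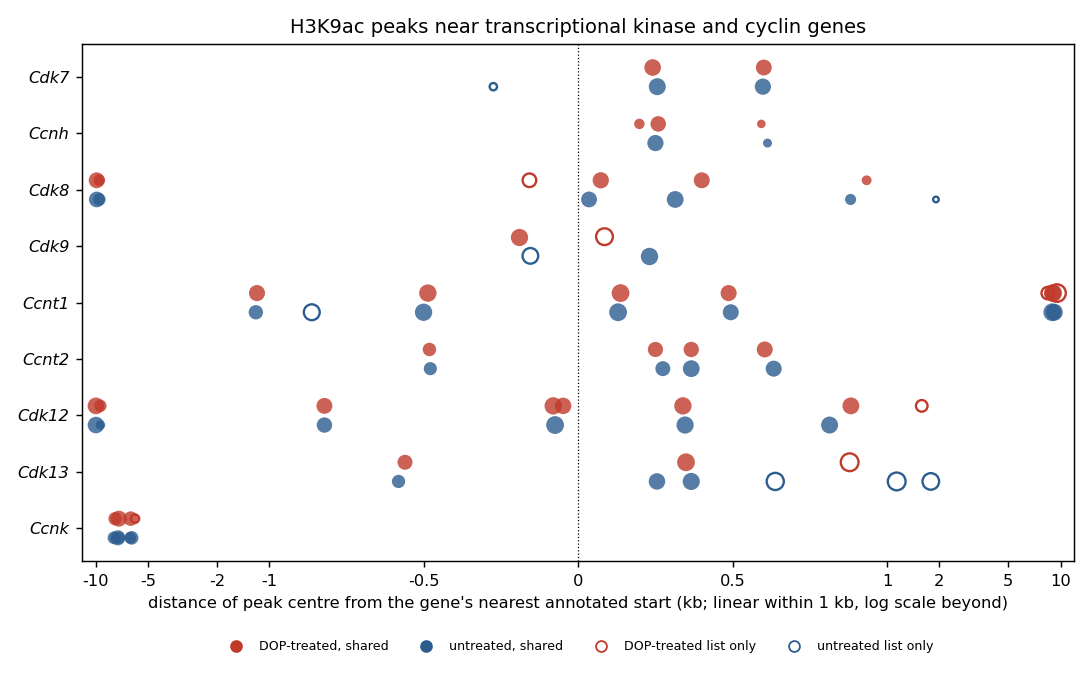
Each row is a gene and each circle a peak, placed by the distance of its centre from the gene's nearest annotated start (kb, downstream to the right, linear within 1 kb and logarithmic beyond), with a larger area for a higher percentile and open circles for peaks of that list only. The Cdk13 peaks of one list alone lie downstream of the start, and all Ccnk peaks lie between 5945 and 7866 bp upstream of its annotated start.

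Cdk13, the partner of cyclin K with a long coding first exon, has 1 annotated transcript on the minus strand of chromosome 13 (chr13:17807796-17896931, mm9). Its first exon spans 1660 bp and is coding from 446 bp after the start. The DOP list held 3 peaks there. The highest was centred in the 5′ UTR at 17896582 with a score of 2153 (percentile 99.3, shared), 349 bp after the start. The next, at 17896052 in the coding part of the first exon, had a score of 1803 (percentile 98.5) and was found in the DOP list only. The weakest lay 561 bp before the start, with a score of 615 (percentile 67.7, shared).

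The untreated list held 6 peaks at Cdk13. The highest of them, centred at 17895794 with a score of 1947 (percentile 98.8), and the peak at 17896293 with a score of 1149 (percentile 91.5) both lay in the coding part of the first exon and were found in the untreated list only. These centres stand on either side of the DOP-only centre, at 258 and 241 bp from it, so the coding part of the exon held 1 strong call with DOP and 2 without, with no overlap between them. Another untreated-only peak, with a score of 905 (percentile 84.7), lay in the first intron, 1787 bp after the start. The remaining 3 were shared: 17896565 (score 1143, percentile 91.4) and 17896676 (score 886, percentile 84.0) in the 5′ UTR, and 17897513 (score 412, percentile 51.3) before the start. The single DOP-treated peak of the 5′ UTR overlapped both untreated peaks there, whose centres were 17 and 94 bp from its own. From the first to the last centre the acetylated stretch covered 1440 bp in the DOP list and 2369 bp in the untreated list. Its downstream end in the untreated list is set by untreated-only peaks, and Cdk13 was chosen for one-list calls, so nothing is read from these lengths. Other genes went both ways, such as Cdk12 (2700 bp with DOP, 1929 bp without) and Cdk7 (360 and 886 bp).

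The sequences under the 3 peaks of the coding first exon that were found in one list only are shown because Cdk13 was chosen for these calls. They were read from mm9 on the minus strand, the strand of the gene, and are printed 5′ to 3′ with each CG dinucleotide in capitals. The order is that of transcription.
Untreated-only peak, chr13:17896194-17896393: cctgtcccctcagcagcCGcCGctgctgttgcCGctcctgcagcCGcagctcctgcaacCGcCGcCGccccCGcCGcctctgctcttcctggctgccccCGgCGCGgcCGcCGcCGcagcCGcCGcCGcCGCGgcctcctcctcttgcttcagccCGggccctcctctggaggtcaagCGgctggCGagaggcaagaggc
DOP-only peak, chr13:17895953-17896152: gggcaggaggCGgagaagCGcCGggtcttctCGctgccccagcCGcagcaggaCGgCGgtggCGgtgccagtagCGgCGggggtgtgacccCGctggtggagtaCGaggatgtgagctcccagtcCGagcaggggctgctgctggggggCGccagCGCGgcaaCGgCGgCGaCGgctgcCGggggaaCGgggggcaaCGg
Untreated-only peak, chr13:17895695-17895894: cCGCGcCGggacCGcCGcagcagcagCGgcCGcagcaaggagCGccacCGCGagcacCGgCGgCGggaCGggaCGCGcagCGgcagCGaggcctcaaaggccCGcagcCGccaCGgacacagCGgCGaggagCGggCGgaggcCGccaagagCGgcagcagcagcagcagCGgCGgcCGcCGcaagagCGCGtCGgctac
All 3 stretches are coding over their 200 bases and rich in G and C, at 77% in the first, 75.5% in the second and 79% in the last. They hold 23, 23 and 34 CG dinucleotides. The letters GGGCGG, searched on both strands, occur in both untreated-only stretches and not in the DOP-only one. Of all peaks within 10 kb of a protein-coding start, 30.7% of the DOP-treated and 31.4% of the untreated peaks hold those letters.

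**Figure D3:**
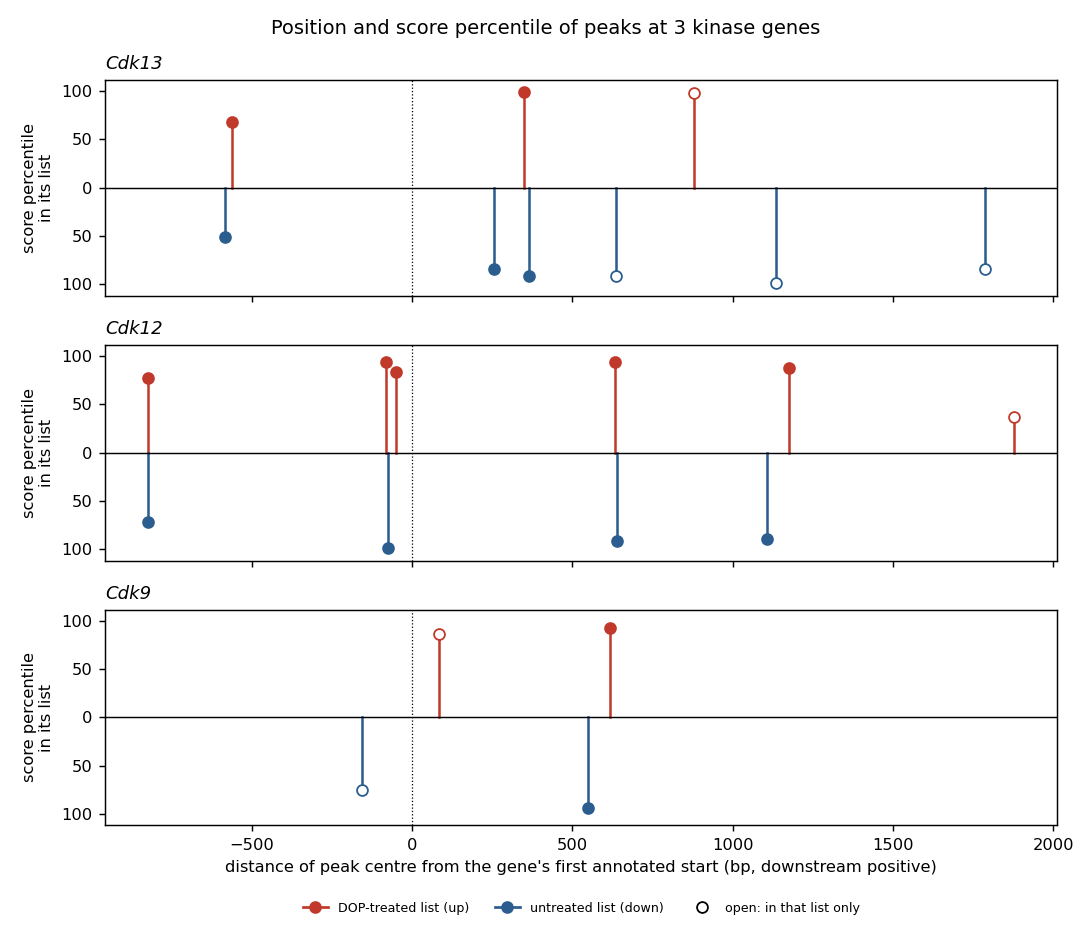
Stems mark peak centres by distance from the first annotated start (bp, downstream positive) and by score percentile within the list, DOP-treated upward in red and untreated downward in blue, with open heads for peaks of that list only. At Cdk13 an open DOP-treated stem at 879 bp stands between open untreated stems at 638 and 1137 bp, while at Cdk12 the stems of both lists face each other except at 1878 bp.

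Sites of the kind seen at Cdk13 were collected over the genome as pairs of a DOP-only and an untreated-only peak that are each other's nearest and whose centres lie within 300 bp. There were 176 such pairs. Ordered by the lower of the 2 percentiles, the Cdk13 pair came 2nd at 91.5, and 3 pairs had both peaks in the top 10% of their lists. Such a pair lay near 2 of the 9 genes, Cdk13 and Cdk9, beside 1.73% of genes with a peak. Cdk13 was chosen for its pair, so nothing is read from this count or from its place in the order, and without it the count is 1 of 8. The sites most like it were those of Psmb10, a proteasome subunit, with a lower percentile of 95.9, and Vapa, a membrane protein of the endoplasmic reticulum, with 90.2. They were followed by the histone variant genes H3f3b (87.7) and H2afz (84.8) and by 2310022B05Rik (78.5). At all 5 of these genes, as at Cdk13, both centres lay downstream of the nearest start, by 94 to 1029 bp. That is the usual side, since 29.1% of the DOP-treated and 27.2% of the untreated peaks within 10 kb of a protein-coding start lay upstream. At Cdk9 the untreated-only centre lay 155 bp upstream.

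**Figure D4:**
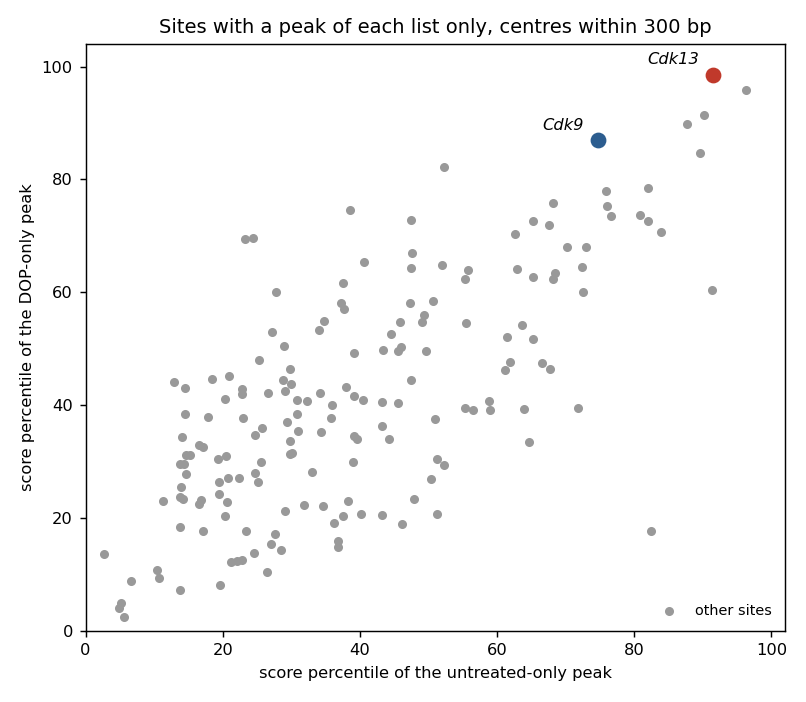
Each point is a pair of a DOP-only and an untreated-only peak with centres within 300 bp, plotted by the score percentile of the untreated-only peak (horizontal) and of the DOP-only peak (vertical). Cdk13 at 91.5 and 98.5 lies in the upper right corner, Cdk9 at 74.8 and 86.9 below it, and 35 of the 176 pairs have both peaks in the upper 50% of their lists.

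Cdk12, the close relative of Cdk13, lies on the plus strand of chromosome 11 (chr11:98064373-98139818), and 1043 bp of its first exon of 1352 bp are coding. All but 1 of its peaks were shared. In the DOP list 6 peaks had a Cdk12 start as their nearest, with percentiles of 77.4, 94.0, 83.8, 93.6, 88.2 and 37.0 in the order of transcription, and in the untreated list 4 did, with 71.9, 99.5, 91.6 and 89.5. The untreated peak 75 bp before the start, with a score of 2348, ranked 177th of its list. It overlapped 2 DOP-treated peaks with percentiles of 94.0 and 83.8, whose centres were 32 bp apart. Both centres in the coding part of the first exon had a counterpart, 7 and 69 bp away. The peak found in the DOP list only was the weakest of those nearest to a Cdk12 start, at 98066251 in an intron with a score of 305.

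Cdk13 and Cdk12 thus both had a long coding first exon with strong calls centred in its coding part. The calls at Cdk12 were shared between the lists. Those at Cdk13, which the gene was chosen for, overlapped no peak of the other list, although they count as shared if centres within 500 bp are taken as the same peak.

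Ccnk encodes the cyclin of both kinases. By the annotated starts all its peaks, 4 in the DOP list and 5 in the untreated list, lay nearest to Setd3, a histidine methyltransferase gene on the opposite strand whose start is 7056 bp from the annotated Ccnk start (chr12:109424580-109441569, plus strand). None lay within 5 kb of that annotated start. The RefSeq promoter of Ccnk, found once in mm9 by its sequence, places a start at 109417948, 6632 bp further upstream. From this start the DOP-treated peaks lay at −1114, −730, 335 and 687 bp and the untreated peaks at −1234, −831, −761, 304 and 413 bp, so that centres of both lists flanked it. By the RefSeq start 2 of the 4 DOP-treated and 2 of the 5 untreated peaks, those on its downstream side, were nearer to Ccnk than to the annotated Setd3 start. The 250 bases before that start are shown because the peaks gather around them and not around the annotated start. They were read on the plus strand of mm9, with CG in capitals.
Ccnk, 250 bases before the RefSeq start, chr12:109417698-109417947: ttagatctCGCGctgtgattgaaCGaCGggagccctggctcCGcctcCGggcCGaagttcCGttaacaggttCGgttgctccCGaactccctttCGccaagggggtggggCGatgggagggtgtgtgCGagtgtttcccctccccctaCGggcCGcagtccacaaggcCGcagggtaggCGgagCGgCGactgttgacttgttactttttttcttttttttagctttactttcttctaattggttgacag
This stretch holds 19 CG dinucleotides, whereas the 250 bases before the annotated start hold 5. Over 300 bases around each start (250 before and 50 after), the observed to expected ratio of CG was 1.01 at the RefSeq start and 0.300 at the annotated start. The first is at percentile 93.0 and the second at percentile 32.7 of the promoters of protein-coding genes. The 250 bases before the Setd3 RefSeq start at 109417494, on the opposite strand, overlap the stretch shown. Around that Setd3 start the CG ratio was 0.963. The CG content and the peaks here can therefore not be assigned to Ccnk alone.

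The Ccnk and Setd3 peaks were of middling height. The 3 DOP-treated peaks that were shared had percentiles of 50.9, 78.6 and 63.6, and their nearest untreated partners had 45.1, 41.9 and 38.0. The gaps of 36.7 and 25.6 percentile points in the last 2 pairs lie at places where the untreated list divided its calls. Whether the division accounts for the gaps was not tested. Each of these DOP-treated peaks also overlapped a stronger untreated peak that was no partner in a pair, at 109417117 (percentile 68.8) and at 109418361 (percentile 54.4). A DOP-only peak with a score of 132 (percentile 14.4) closed the group.

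Cdk9, the kinase of P-TEFb, lies on the minus strand of chromosome 2 (chr2:32561304-32568596) and had 2 peaks in each list. The stronger was shared, with a score of 1216 (percentile 92.7) at 32567979 in the DOP list and 1309 (percentile 94.4) at 32568047 in the untreated list. The other was called 240 bp apart. In the DOP list it lay in the 5′ UTR, 85 bp after the first annotated start, that of a transcript subject to nonsense-mediated decay, with a score of 995 (percentile 86.9). In the untreated list it lay 155 bp before that start, outside any protein-coding gene, with a score of 697 (percentile 74.8). In the genome-wide order of such pairs this site came 9th. Measured from the RefSeq start at 32568304, both centres were upstream, at −207 and −447 bp. The untreated-only peak is shown because it covers the promoter side of this pair. It was read on the minus strand, with CG in capitals.
Cdk9, untreated-only peak, chr2:32568652-32568851: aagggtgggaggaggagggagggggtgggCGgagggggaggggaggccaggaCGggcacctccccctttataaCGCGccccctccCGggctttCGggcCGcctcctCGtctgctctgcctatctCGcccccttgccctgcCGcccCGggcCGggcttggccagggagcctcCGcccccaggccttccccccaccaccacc
It holds the letters TATAAA and GGGCGG on at least 1 strand. TATAAA occurs in 2.97% of the untreated peaks within 10 kb of a protein-coding start. The GC content is 75%, with 13 CG dinucleotides.

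Ccnt1, the main cyclin of CDK9, lies on the minus strand of chromosome 15 (chr15:98369120-98401354) and had the most peaks of the 9 genes along with Cdk12 in the DOP list. Nearest to its own starts lay 4 DOP-treated and 5 untreated peaks. The strongest stood at percentile 98.7 with DOP (score 1881) and 99.0 without (score 2029), and centres 8 bp apart. The pair at the upstream end, 18 bp apart, had a percentile of 79.6 with DOP and 61.6 without. Between it and the next pair the untreated list held a peak of its own with a score of 736 (percentile 77.0). Another 4 DOP-treated and 2 untreated peaks lay near the start of the neighbouring gene 2310037I24Rik, among them both DOP-only peaks counted for Ccnt1, with percentiles of 95.5 and 44.0.

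Ccnt2, the second T-type cyclin, lies on the plus strand of chromosome 1 (chr1:129670741-129704638) and had the same number of calls in both lists. Its 4 peaks in each list were all shared, with centres 3, 24, 0 and 29 bp apart. The percentiles were 52.8, 69.8, 71.3 and 78.6 in the DOP list and 49.9, 67.5, 87.5 and 78.7 in the untreated list. At the peak called at the identical position in both lists, 129671107, the percentile was 71.3 with DOP and 87.5 without. It was the one pair of Ccnt2 with a gap above 3 percentile points.

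Cdk7, the kinase of TFIIH, lies on the minus strand of chromosome 13 (chr13:101466982-101500897). Both its DOP-treated peaks lay in introns and were shared, with percentiles of 76.9 and 85.2 beside 80.9 and 89.7 in the untreated list. The untreated list added a weak peak 275 bp before the start with a score of 88 (percentile 9.54). Ccnh, the cyclin of CDK7, lies on the plus strand of the same chromosome (chr13:85329013-85363074). It had a main peak in an intron with a score of 695 (percentile 73.1) with DOP and 817 (percentile 81.0) without, 9 bp apart, and a weak one at percentiles of 16.1 and 18.6. A further DOP-treated peak of percentile 28.2 lay 61 bp from the main one and overlapped the same untreated peak. The 4 shared pairs of these genes had the higher percentile in the untreated list, by 2.45 to 7.85 points, as did 10411 of all 25377 shared pairs of the lists.

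Cdk8, the kinase of the Mediator module, lies on the plus strand of chromosome 5 (chr5:147042806-147114450). Around its start the DOP list held peaks with percentiles of 54.2, 81.2, 78.0 and 24.1, and the untreated list 76.7, 87.3 and 33.3. The first of these, 158 bp before the start with a score of 458, was found in the DOP list only, 251 bp from the nearest untreated centre. The shared calls lay further apart than at most of the other genes, at 135, 86 and 52 bp. The untreated list alone held a call far inside the gene, in an intron 67048 bp from the first start and 1913 bp from an annotated start of a retained-intron transcript, with a score of 33 (percentile 1.82). A further 2 peaks of each list, all shared, belonged to the start of Rnf6, 9675 bp away.

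Peaks nearest to the annotated start of a neighbouring gene entered through the 10 kb window at 4 genes: Cdk8 (Rnf6), Ccnt1 (2310037I24Rik), Cdk12 (Med1, a Mediator subunit) and Ccnk (Setd3), the last with the limit given above for its RefSeq start. Nearest to an annotated start of the 9 genes themselves lay 28 DOP-treated peaks, of which 4 were found in that list only, and 30 untreated peaks, of which 7 were. These are 14.3% and 23.3%, beside 16.2% and 13.3% of peaks within 10 kb of any protein-coding start, and 3 of the 7 are those of Cdk13, which was chosen for such peaks. At the edge of the window the farthest peaks inside were those of Med1, 9970 bp from the Cdk12 start with DOP (percentile 86.7) and 9976 bp without (84.9). Just outside lay further Med1 peaks at 10317 bp (54.7) and 10330 bp (61.8) and a DOP-treated peak of Rnf6 at 10518 bp from Cdk8 (40.2).

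Shared peaks were paired as each other's nearest, and 30 pairs were found at the 9 genes. The median difference in percentile, DOP-treated minus untreated, was 0.57 points, with 16 pairs higher in the DOP list and 14 higher in the untreated list. Over all 25377 pairs of the lists the median was 1.34, with 14965 higher in the DOP list and 10411 in the untreated list. Of the 22 pairs nearest to an annotated start of the 9 genes themselves, 10 were higher in the DOP list and 12 in the untreated list, with a median of −0.22. The widest gaps at own starts were those of Ccnt1 (18.0 points, higher with DOP), Cdk13 (16.4, higher with DOP) and Ccnt2 (16.2, higher without). The centres of the 30 pairs were 17.5 bp apart in the median, and 21 of them, 70%, were within 30 bp, compared with 29 bp and 51.3% over all pairs.

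**Figure D5:**
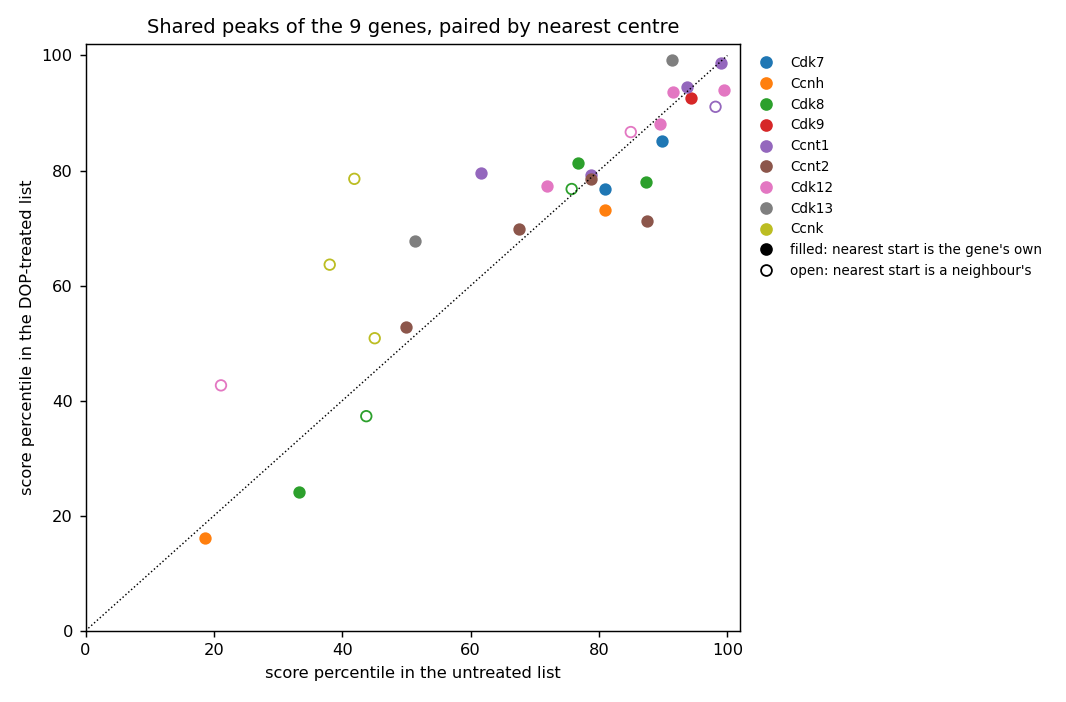
Each point is a pair of shared peaks at the 9 genes, by score percentile in the untreated list (horizontal) and in the DOP list (vertical), with colours for genes, open circles for pairs nearest to a neighbour's annotated start, and a dotted line of equality. Of the 30 pairs 16 lie above the line, and 2 of the 3 open Ccnk points, nearest to Setd3 where the untreated list divided its calls, lie farthest above it.

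In several places a call of one list overlapped more than one call of the other. At least 2 untreated peaks were overlapped by 6 of the 40 DOP-treated peaks, beside 13.3% of all DOP-treated peaks, and at least 2 DOP-treated peaks by 5 of the 41 untreated peaks, beside 12.8% of all untreated peaks. The genes concerned were Cdk13, Ccnt2 and the Setd3 and 2310037I24Rik neighbourhoods on the DOP-treated side, and Cdk12, Ccnh, Ccnt2 and 2310037I24Rik on the untreated side.

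The DNA under the peaks of the 9 genes was close in GC content to that under other peaks near start sites and had a higher ratio of CG. The median GC content was 61.8% for the DOP-treated and 62.5% for the untreated peaks, beside 60.5% and 61.0% for peaks within 10 kb of a start, and the observed to expected ratio of CG was 0.862 and 0.813, beside 0.672 and 0.683. Of the promoters themselves, taken from 250 bases before to 50 after the first annotated start, 7 of 9 held GGGCGG on at least 1 strand, beside 43.4% of all protein-coding genes and 60.2% of genes with a peak. The peaks of the 9 genes held these letters in 27.5% with DOP and 36.6% without, beside 30.7% and 31.4% of peaks within 10 kb of a start. Of the other words searched, the CCAAT box was in 2 of the 9 promoters, beside 38.0% of genes with a peak, TATAAA in 2 (7.46%), CCGGAAG in 2 (16.5%) and TGACGTCA in 0 (3.16%). These counts depended on the start used. In the promoters of the 8 genes with a RefSeq start, GGGCGG was in 8, the CCAAT box in 3, CCGGAAG in 4, TATAAA in 0 and TGACGTCA in 0. Shares over all RefSeq promoters were not computed, and those above are for annotated starts, so nothing is read from the RefSeq counts. The Cdk13 promoter had a GC content of 78.3%, at percentile 98.1 of all promoters, and a CG ratio of 1.15, at percentile 98.8.

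The other genes of the same pathways were covered in the same way by 6 lists with 55 genes. All but Med12l, which had no peak in either list, had peaks in both lists. More peaks in the DOP list were found at 22 of the 55, fewer at 11, and equal numbers at 21. Over all genes with a peak 32.5% had more and 28.5% fewer, and the counts of each list below stand beside these shares, with no list called different from them. Among the 8 genes of TFIIH and the CDK-activating kinase 5 had more with DOP and 0 fewer (32.5% and 28.5% over genes with a peak). The TFIIH helicase genes Ercc2 (4 and 3) and Ercc3 (3 and 2) are examples. In the Mediator kinase module, which includes Med12l, 1 of 6 had more and 3 fewer (32.5% and 28.5% over genes with a peak). Cdk19, the paralog of Cdk8, had 3 with DOP and 5 without, and cyclin C gene Ccnc 1 and 2.

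Among the 12 regulators of P-TEFb and members of the super elongation complex 5 had more and 4 fewer, again beside 32.5% and 28.5%. Hexim1, which holds P-TEFb inactive, had 7 peaks with DOP and 5 without, and the elongation factor gene Ell3 had 8 and 6. Of the 12 pausing and elongation factors 6 had more and 1 fewer, beside the same shares, the last being Cdc73 of the PAF complex with 1 and 3, whereas Supt6h had 4 and 2. A DOP-only and untreated-only pair within 300 bp lay at 1 of the 55 genes, beside 1.73% of genes with a peak. It was Th1l, a subunit of the pausing factor NELF. Of the 5 other transcription-linked kinases and cyclins 2 had more and 2 fewer, with Ccnl2 at 6 and 4 and Cdk10 at 2 and 3. Of the 12 subunits of RNA polymerase II 3 had more and 1 fewer, beside 32.5% and 28.5%, with Polr2k at 5 and 3 and Polr2h at 6 and 5. For comparison, of 12 cell cycle kinases and cyclins 5 had more and 3 fewer, with Ccna2 at 4 and 2 and Ccnd1 at 2 and 4.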

How the data were processed

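H3K9ac ChIP-seq of STHdh Q111 cells was deposited by the authors as 2 lists of called events, 1 per condition, with a score for each event in a column that the file headers do not define. The paper's methods name Bowtie 2 and mm9 for alignment and GPS for peak calling, while the submitters' processing notes list BWA 0.7.10. A control immunoprecipitation with IgG was made, but whether it entered the peak call, how the 2 samples of a condition were combined, and the threshold are not given in the sources used here. Both lists are longer than the peak sets counted in the paper, and the step between them is not given there, so shares and percentiles refer to the lists as deposited. Depth per sample is unknown.

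Peaks are 200 bp intervals. Starts came from protein-coding genes of GENCODE vM1 on NCBIM37 (mm9). Peaks centred no more than 10 kb from a start were assigned to its gene, and a peak was shared if at least 1 bp overlapped the other list. Percentiles are ranks of the score within a list. RefSeq promoters (GRCm38.p6) were placed on mm9 by exact sequence match for 8 of the 9 genes, with Ccnh as the remaining one. Those of Setd3 were placed in the same way. No test was run, because each list has no replicate and Cdk13 was chosen by these values. The members and gene lists were chosen with earlier results of these data known. Named genes were the 9 genes, up to 2 genes per list with the largest difference in peak number in either direction (ties taken in alphabetical order of symbol, which leaves out other genes with an equal difference) and those with no peak, and the 5 genes most like Cdk13. Searched on both strands were the GC box (GGGCGG), the CCAAT box, the TATA box (TATAAA), the cAMP response element (TGACGTCA) and an ETS word (CCGGAAG), none of which contains another. The functions were tested on 4000 simulated sites, where 5 of 5 planted answers were recovered. Alternatives were other windows, starts, overlap rules, score limits and clusters. Scripts ran in Python 3.11.15, with matplotlib 3.10.9, pandas 2.3.3, scipy 1.17.1 and numpy 2.4.6.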

Additional observations from a re-analysis of the deposited data

How the results depend on the processing

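Of 64 values computed under alternative settings 50 stayed within 1.5 times the value reported and 14 did not. With centres limited to 1 kb of a start each list held 26 peaks, with 3 DOP-only and 4 untreated-only among them. Within 5 kb 4 peaks were DOP-only, as were 4 when peaks nearest to another gene's start were left out, since both DOP-only peaks counted for Ccnt1 and that of Ccnk fall away. Chaining peaks within 1 kb left 13 DOP-treated and 14 untreated clusters. Calling peaks shared when centres lay within 500 bp left 2 DOP-only and 3 untreated-only peaks, and within 1 kb 0 and 1, and the one-list calls of Cdk13 in its coding first exon then count as shared. A reciprocal overlap of at least 50% gave 11 untreated-only peaks. For these rules of sharing, the share of all peaks that stayed unshared was not computed. The counts under them can therefore not be set beside the lists as a whole. In the top 50% of each list 1 gene had fewer DOP-treated peaks instead of 3. Adding the RefSeq starts, chosen after seeing the data, left all 7 counts it was applied to within 1.5 times. The RefSeq start of Ccnk, with its closer peaks, is the same addition. No paired analysis was possible because the lists are single calls per condition that carry no replicate number, and for the same reason no replicate could be left out. Depth is unknown, so a peak missing from a list may lie under its threshold.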
